A study of Danio rerio with 24 samples.

Results

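The gene described is mrpl30, which encodes a protein of the large subunit of the mitochondrial ribosome. In the files it is 1 of 3835 genes that the study's tables pair with a probe, under the identifier ENSDARG00000069850. It lies on chromosome 9 at 22013894 to 22015044 in the Zv9 build, and its level was read from probe MAD_Dr_004_503201, designed near the 3′ end of a RefSeq transcript. A second probe, MAD_Dr_004_107249, is listed beside the first in the tables. The header of that column speaks of cross-hybridization, and the sources used here do not explain it further. The gene was selected on its Cy3 signals in these eggs, because its level differed between mothers, so its Cy3 levels are compared between mothers as a description with no test, and the tests between mothers are those of other genes and of the reference channel.

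Mitochondria carry their own ribosomes, which translate the few proteins of the respiratory chain that mitochondrial DNA encodes. All proteins of these ribosomes are encoded in the nucleus, made in the cytosol and imported. Most genes of the large subunit have mrpl names and most of the small subunit mrps names, while some are named otherwise. An egg is stocked by its mother with mitochondria and with RNA, and both serve the embryo before its own genome is transcribed.

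The eggs came from 5 sisters of the wt ABTL strain, and each mother gave 1 clutch by squeezing, so that mother and clutch cannot be told apart. Mothers 1 to 4 gave 5 mature, unfertilized eggs each and mother 5 gave 4, all untreated, and each egg was hybridized on an array of its own (24 arrays, 4 on each of 6 slides). Total RNA of a single egg was polyadenylated, depleted of ribosomal RNA, amplified and labelled with Cy3, and a reference pooled from eggs was labelled with Cy5. Eggs of a clutch are separate samples of 1 animal, so the spread between them is that within a mother. The ages of the mothers are not given in the sources used here.

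Values below are log2 Cy3 signals after quantile normalization, in which a difference of 1 is a factor of 2. These are relative levels, since the arrays did not measure the amount of RNA in an egg, so less mrpl30 RNA and more of the other RNA cannot be told apart. A transcript was called expressed where its probe was called present, at a probability over 0.95, on at least 4 arrays, as held for 26828 transcripts. The mean raw log2 Cy3 signal of the expressed transcripts ran from 7.63 to 9.78 over the arrays, and 18831 to 25565 probes of an array were called present. The median of this array mean was 7.93, 8.15, 9.24, 9.28 and 8.57 for mothers 1 to 5. Array brightness thus differed between mothers before normalization, though their ranges overlapped. All 13 egg markers with a probe were expressed, 11 of them on all 24 arrays, and the log2 of their summed signal was 15.4 to 15.7 in mother 3 and 15.2 to 16.1 in the others. Against mothers 1, 4 and 5, mother 3 was lower for 4 of the 13 and higher for 4 (limma contrast, adjusted p under 0.05). Over all expressed transcripts mother 3 was lower for 19.0% and higher for 20.3%. The 13 ran from the linker histone gene h1m, lower by 2.31 on the log2 scale, to the egg coat gene zp3.2, with a difference of -1.05. Of the 4 probes for blood globins 1 was expressed, and of 3 follicle cell markers cyp11a1 was present on all 24 arrays, hsd3b1 on 19 and lhcgr on 5. Over all expressed transcripts, 61.7% differed between mothers (limma moderated F with Benjamini-Hochberg adjustment at 0.05), which is the background for the counts that follow.

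mrpl30 was at a low level in the eggs of mother 3, at a slightly reduced level in those of mother 2, and at 1 common high level in those of mothers 1, 4 and 5. In the eggs of mother 3 the log2 Cy3 signal was 8.26, 8.26, 7.84, 8.63 and 8.96. In the eggs of mother 2 it was 11.53, 11.45, 11.97, 11.51 and 11.54. All 5 eggs of mother 3 lay below all 19 eggs of the other mothers. In the eggs of mother 1 the log2 signal was 12.45, 12.10, 12.51, 12.16 and 12.26, and in those of mother 4 it was 12.29, 12.45, 12.20, 12.43 and 12.29. In the eggs of mother 5 it was 12.39, 12.39, 12.32 and 12.26. The ranges of mothers 1, 4 and 5 overlapped with each other and lay above that of mother 2.

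The mean log2 signals put the mothers in the order 5, 4, 1, 2 and 3, with 12.34 ± 0.06 (SD, n = 4), 12.33 ± 0.10 (SD, n = 5), 12.30 ± 0.18 (SD, n = 5), 11.60 ± 0.21 (SD, n = 5) and 8.39 ± 0.42 (SD, n = 5). Mothers 5, 4 and 1 did not differ beyond their spread, with at most 1.03-fold between their means. Their joint mean was 1.65-fold that of mother 2 and 15.3-fold that of mother 3, and mother 2 was 9.25-fold above mother 3. From the lowest to the highest mother mrpl30 spanned 15.4-fold, and 0.123% of the 26828 expressed transcripts spanned more. Of the variance of mrpl30 over the 24 eggs, 98.2% lay between mothers. The connective tissue and epithelium markers krt8 and vim differed between mothers too (adjusted p = 3.60e-09 and 1.36e-07 in the F-test), and the log2 of their summed signal was 8.26 to 8.46 in mother 3, 9.42 to 10.07 in mother 2 and 8.56 to 9.2 in mothers 1, 4 and 5. krt8 was higher in mother 2 than in mothers 1, 4 and 5, with a log2 difference of -1.29, and lower in mother 3 by 0.40, while vim was lower in both, by 0.63 and 0.69. For the 4 globin probes the log2 sum was 8.43 to 8.74 in mother 3 and 8.29 to 9.52 in the others. Their part in the level of mrpl30 was not tested.

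**Figure D1:**
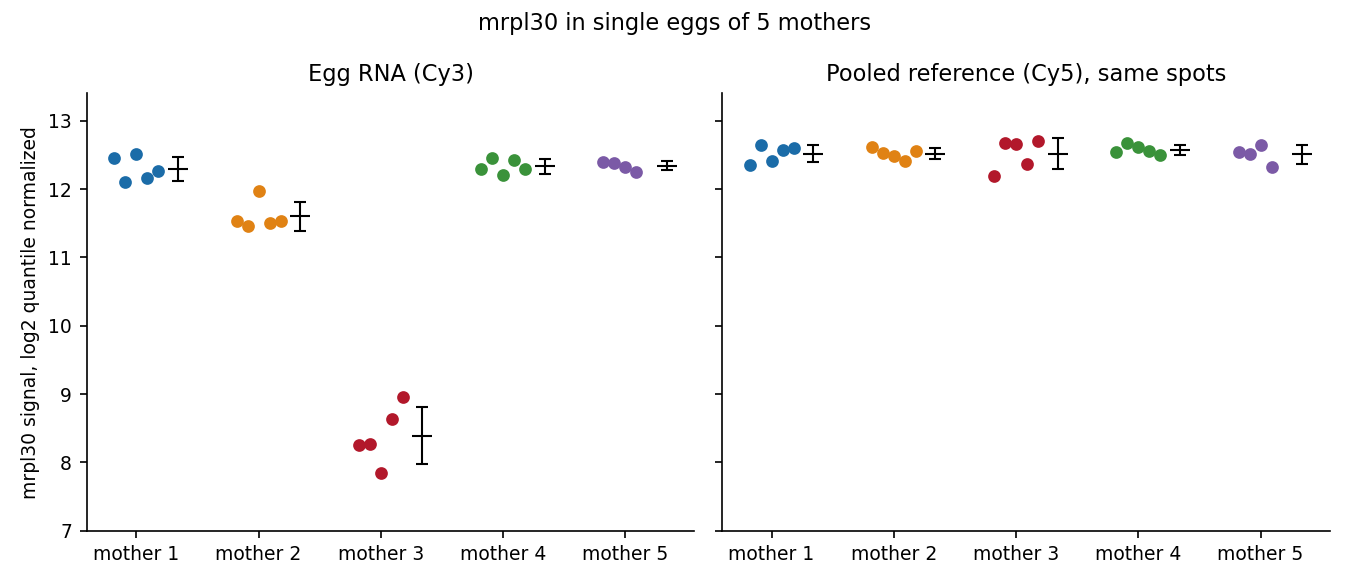
Log2 quantile normalized signal of mrpl30 in each egg, by mother, for the Cy3 channel (left) and for the Cy5 reference at the same spots (right). Points are eggs in the order of their numbers, and the bar beside them is the mean ± SD. In Cy3 the eggs of mother 3 lie between 7.84 and 8.96 and all others between 11.45 and 12.51, while the reference lies between 12.19 and 12.70 on all arrays.

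In the terms of the study, mrpl30 had 3 absolute distinct levels, which are groups of clutches whose ranges of signal do not overlap. With 1 for the highest level and the mothers in order, its profile was 12311, that is, mother 2 on the second level and mother 3 on the third. The gap between the lowest egg of mother 2 and the highest egg of mother 3 was 2.50 on the log2 scale, or 5.65-fold. The gap between the lowest egg of mothers 1, 4 and 5 and the highest of mother 2 was 0.13, which was smaller than the SD within each of mothers 1 and 2. This upper gap closed under 2 other scalings, the scanner's processed signal set to a common 75th percentile and centring on the array median, and the profile was then 11211. The array median was near background, with a raw Cy3 intensity of 71 to 91 on every array. Centring on it therefore leaves most of the difference in brightness between arrays in the values. Mother 3 was apart under all 6 alternative scalings and signals. At least 2 levels were found for 18.2% of the expressed transcripts, and the profile 12311 for 32 of them (0.119%).

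The maximum fold change (mFC) between any pair of the 24 eggs was 25.4 for mrpl30, and the largest within a clutch was 2.16, in mother 3. The SD of mother 3 was larger than in the other clutches, and 5.02% of the 5540 transcripts with a mean within 0.5 of that of mrpl30 in mother 3 had a larger SD there. Within this clutch the egg with the brightest array (egg 3, mean raw log2 signal 9.73) had the lowest normalized value, and the egg with the dimmest (egg 5, 7.74) the highest. In mother 2, egg 3, on the brightest array of the series (9.78), had the highest value. The part of the array signal in these values was not tested.

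The eggs of mother 3 were also apart before normalization: the Cy3 intensity of the mrpl30 spot was 223 to 494 in the eggs of mother 3 and 1156 to 11598.5 in all others, so the groups did not overlap. The raw ranges of mothers 1, 2, 4 and 5 overlapped, and the level of mother 2 is therefore seen only after normalization. Over the local background the raw signal was 3.43- to 8.98-fold in mother 3, and the spot was well above background in all 24 eggs, with 0 spots saturated and 0 marked as non-uniform. Within slides the order held: on the 5 slides that held an egg of mother 3, that egg was lower by 3.36 to 4.34 on the log2 scale than the mean of the eggs of mothers 1, 4 and 5. On the 5 slides that held an egg of mother 2 it was lower by 0.23 to 0.93, and below all of those eggs on each slide.

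The Cy5 channel shows what the same spots gave for RNA that was the same on every array. The reference signal of mrpl30 had mean log2 values of 12.51 to 12.58 over the arrays of the 5 mothers, 1.05-fold between the highest and the lowest. No difference was called (limma moderated F with Benjamini-Hochberg adjustment, adjusted p = 1.00). In this channel 0 of the 26828 transcripts were called and 194 had an unadjusted p under 0.05 (0.723%). Of the variance of the reference signal 3.71% lay between mothers, and the ranges of all 5 overlapped.

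The second probe gave no level for mrpl30. Its log2 Cy3 signal was 6.08 to 6.31 over the 24 eggs, and it was well above background in 0 of them. In the Cy5 reference its log2 signal was 6.01 to 6.45, while that of the first probe was 12.19 to 12.70. There the second probe was well above background only on the array of egg 3 of mother 3. The gene thus rests on 1 probe near the end of its transcript. Less RNA, RNA without the probed stretch and RNA with a sequence difference in that stretch cannot be told apart. For such point mutations the paper checked several genes that had more than 1 probe.

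Whether the other genes of the mitochondrial ribosome followed mrpl30 was examined next. The tables pair a probe with 32 of them under such names, 20 mrpl and 12 mrps genes, and mitochondrial ribosome genes here means these. All were expressed, and all were well above background in all 24 eggs. Of these, 25 differed between mothers (78.1%, beside 61.7% of all expressed transcripts), 16 mrpl and 9 mrps genes. Their differences were small: from the lowest to the highest mother they spanned a median of 1.44-fold, beside 1.37 over all expressed transcripts. Of the 32, only mrpl54 exceeded 2-fold, with 2.15, while 10.9% of all expressed transcripts did. The tables are parts of the study's lists, among them those of genes that differed between mothers in these samples, so the share that differed is not independent evidence. Of the genes in these tables with a position on other chromosomes than 9, 80.0% differed, and their median span was 1.59-fold.

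The genes did not share the direction of mrpl30. Against mothers 1, 4 and 5, mother 3 was lower for 9 of the 32 genes (28.1%, beside 19.0% of all transcripts) and higher for 8 (25.0%, beside 20.3%). Mother 2 was lower for 6 (18.8%, beside 19.7%) and higher for 12 (37.5%, beside 18.8%). Both mothers were lower for 4 genes, mrpl3, mrpl21, mrpl38 and mrps6 (12.5%, beside 9.0%), and both were higher for 5 (15.6%, beside 9.35%). The median log2 difference of mothers 1, 4 and 5 from mother 3 was -0.06 over the list and 0.01 over all transcripts. From mother 2 it was -0.19 over the list and 0.00 over all transcripts. None of the 32 had the profile 12311, and 9 had at least 2 levels (28.1%, beside 18.2%). With centring on the array median, which leaves most of the difference in brightness between arrays, 1 of the 25 genes was called by the F-test. By either contrast 0 were called, while over all transcripts 383 were lower and 736 higher in mother 3, and 3306 passed the F-test. With the processed signal 4 of the 32 were lower in mother 3, beside 4066 of all 26828 transcripts. With the Cy3 over Cy5 ratio 3 of the 32 were higher, beside 3863 of the 26828. In the main fit these counts over all transcripts were 5109 lower and 5456 higher. Without egg 2 of mother 3, 5 of the 32 were lower, and without its egg 1 or 4, 4 were higher. The shares over all transcripts without these eggs are not given.

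By Pearson's r over the 24 eggs, the nearest of them to mrpl30 was mrpl3, which encodes another protein of the large subunit. It was 1.48-fold lower in mother 3 (adjusted p = 8.02e-07) and 1.34-fold lower in mother 2 (adjusted p = 4.37e-05) than in mothers 1, 4 and 5 by contrasts of the same limma fit. Its log2 signal was 11.49 to 11.67 in the eggs of mother 2 and 11.34 to 11.65 in those of mother 3, and all eggs of the other mothers lay above, from 11.84. The ranges of mothers 2 and 3 overlapped, so mrpl3 had 2 levels and not 3. In the small subunit gene mrps6, mother 3 was lower by 1.57-fold (adjusted p = 4.10e-07) and mother 2 by 1.18-fold (adjusted p = 0.0199). These contrasts take mothers 1, 4 and 5 together. The mrps6 mean of mother 5 was 11.83, below the 11.99 of mother 2, so the mothers did not have the order of mrpl30. The call of mrps6 for mother 2 was lost with the processed signal, with the Cy3 over Cy5 ratio and without egg 4 or 5 of mother 2.

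Genes of both subunits ran against mrpl30. mrps21 was 1.64-fold higher in mother 3 (adjusted p = 1.13e-06) and 1.35-fold higher in mother 2 (adjusted p = 0.000700), and had its low level in mothers 1 and 5. mrpl54 was 1.38-fold higher in mother 3 (adjusted p = 0.00190) and 1.63-fold higher in mother 2 (adjusted p = 1.91e-05). Its mean in mother 1, 9.85, was not below the 9.83 of mother 3. mrpl57 differed in direction between these mothers: it was 1.45-fold lower in mother 3 (adjusted p = 0.000790) and 1.30-fold higher in mother 2 (adjusted p = 0.0144, lost without egg 4 of mother 2).

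The extremes of the other named genes were spread over the 5 mothers. mrps34 was highest in mother 5, which stood apart from all other mothers by a gap of 0.036 on the log2 scale, smaller than the SD within each clutch. Between its extreme mothers, 5 and 1, it spanned 1.84-fold. mrps18c was 1.52-fold lower in mother 2 (adjusted p = 5.69e-07) than in mothers 1, 4 and 5, with mother 2 as its only low level. mrps25 and mrps14 were lowest in mother 4, each with 1.96-fold between the extreme mothers, and mrpl14 was lowest there with 1.99-fold. Of these, mrps14 was also 1.41-fold lower in mother 3 (adjusted p = 0.000598) and mrpl14 was 1.29-fold higher (adjusted p = 0.0208, lost with the Cy3 over Cy5 ratio, without the filter and without egg 1, 4 or 5 of mother 3). The highest mother for mrpl14 was mother 5, with a mean of 11.47 beside 11.30 in mother 3. mrps15, mrpl38 and mrpl21 differed between mothers by 1.44-, 1.33- and 1.32-fold, were highest in mother 4, and were lower in mother 3 than in mothers 1, 4 and 5 by 1.26-fold (adjusted p = 0.00182), 1.19-fold (adjusted p = 0.0191) and 1.18-fold (adjusted p = 0.0198). These 3 differences changed sign with centring on the array median and were not called with the processed signal, that of mrpl38 was also lost without egg 2 or 4 of mother 3, and that of mrpl21 with the Cy3 over Cy5 ratio and without egg 2 or 3 of mother 3. mrpl21 also failed the F-test with the processed signal and with the ratio. Its call for mother 2 was lost with both, and without egg 3 or 5 of mother 2. At the other end, mrpl18 (1.23-fold), mrps24 (1.16-fold) and mrpl13 (1.09-fold) had the smallest differences, and mrpl18 alone of these passed the F-test (adjusted p = 0.0250, lost with the Cy3 over Cy5 ratio and without any of 4 single eggs, 1 or 4 of mother 3 and 1 or 3 of mother 4).

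**Figure D2:**
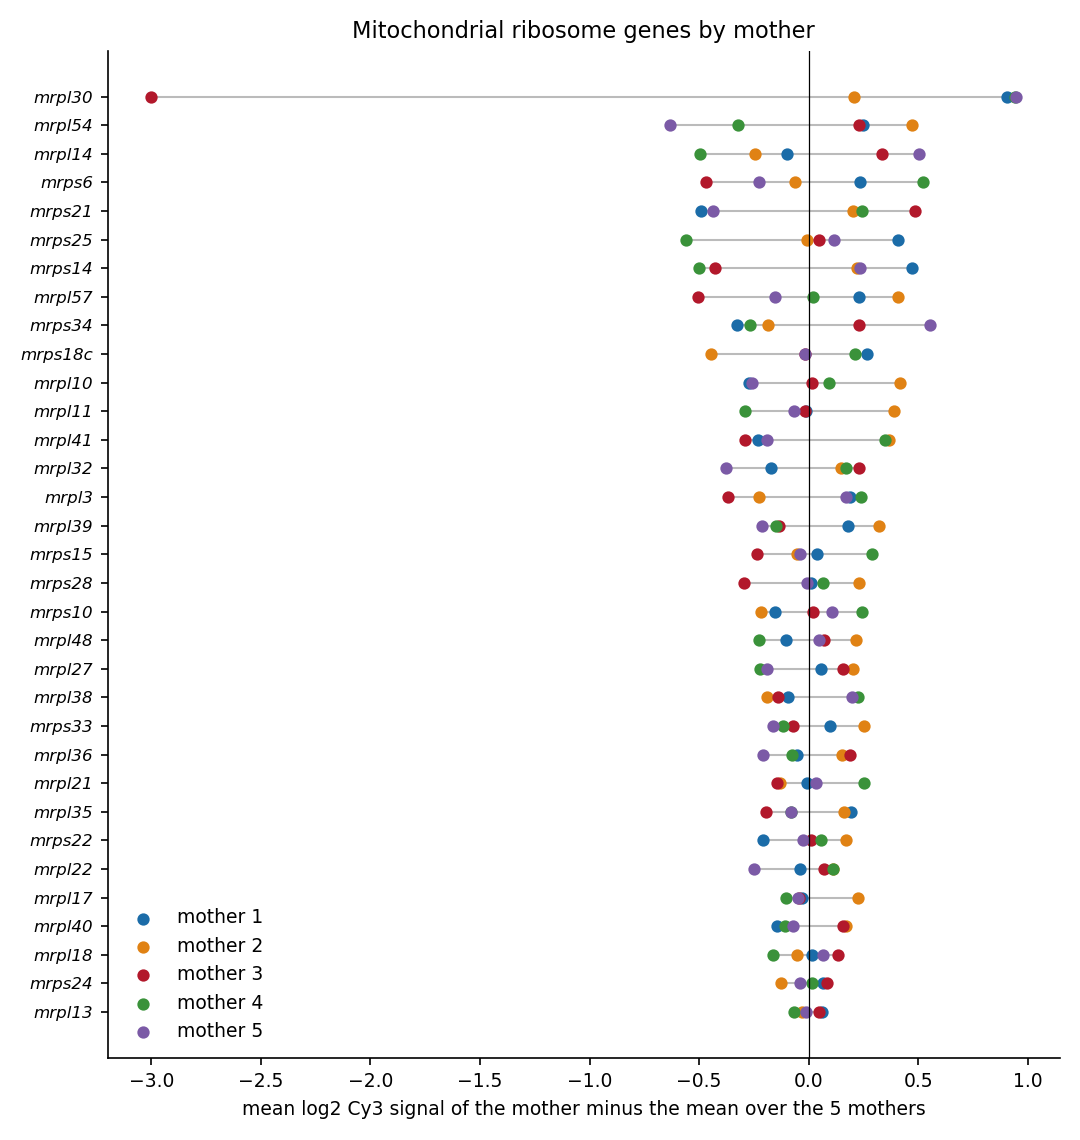
Mean log2 Cy3 signal of each mother, minus the mean over the 5 mothers, for mrpl30 (top) and the 32 other mitochondrial ribosome genes with mrpl or mrps names, in order of the fold they span. Each row is a gene and each point a mother. The point of mother 3 for mrpl30 lies far outside the span of all other genes, whose folds run from 1.09 to 2.15, and no mother is at 1 end in all genes.

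Other genes of mitochondrial translation were examined in the same way: factors that assemble the ribosome or work with it, and ribosomal proteins without mrpl or mrps names. Of 15 such genes with a probe, all expressed, 12 differed between mothers (80.0%, beside 61.7%). They come from the same parts of the study's lists, so this share and those that follow are not independent evidence either. Mother 3 was lower for 3 (20%, beside 19.0% of all transcripts) and higher for 5 (33.3%, beside 20.3%), and mother 2 was lower for 4 (26.7%, beside 19.7%) and higher for 3 (20%, beside 18.8%). The largest folds among those past the F-test were for mterf3 (3.35), a regulator of mitochondrial transcription and ribosome assembly, nars2 (2.97), the mitochondrial asparaginyl-tRNA synthetase, and gadd45gip1 (2.37), a protein of the large subunit. mterf3 was 1.71-fold higher in mother 3 (adjusted p = 2.62e-07) and 2.43-fold higher in mother 2 (adjusted p = 3.77e-11) than in mothers 1, 4 and 5. nars2 was higher in both too, by 1.32-fold (adjusted p = 0.00686, lost without egg 4 of mother 3) and 2.23-fold (adjusted p = 1.26e-08). For gadd45gip1 neither contrast was called, and mother 5 formed its low level.

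The proteins of the cytosolic ribosome, which translates nuclear messages, gave a further comparison. Of 64 genes, all expressed, 37 differed between mothers (57.8%, beside 61.7%). These genes too come from parts of the study's lists. Mother 3 was lower for 6 (9.38%, beside 19.0%) and higher for 13 (20.3%, as over all transcripts), and mother 2 was lower for 4 (6.25%, beside 19.7%) and higher for 5 (7.81%, beside 18.8%). The largest folds past the F-test were for rplp2 (2.69), rpl36 (1.98) and rps14 (1.76). rpl36 was 1.53-fold lower in mother 3 (adjusted p = 3.84e-08), and rps14 was 1.58-fold higher (adjusted p = 9.28e-06, lost with the Cy3 over Cy5 ratio). With this ratio rps14 also failed the F-test (adjusted p = 0.652). None of the 64 and none of the 15 had the profile 12311, which 0.119% of all transcripts had, so its absence from such short lists shows little.

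The genes next to mrpl30 on chromosome 9 did not share its levels. txndc9, whose start lies 5.68 kb before that of mrpl30, had mean log2 signals of 7.65, 7.76, 7.79, 7.65 and 7.66 in mothers 1 to 5, with 1.1-fold between the extremes (adjusted p = 0.434 in the F-test). On the other side, zgc:162944 starts 1.96 kb after mrpl30 starts. It was 1.16-fold lower in mother 3 than in mothers 1, 4 and 5 (adjusted p = 0.0163), and its log2 difference from mother 2 was -0.06 (adjusted p = 0.521). The difference from mother 3 was not called with the processed signal, the Cy3 over Cy5 ratio, or without egg 1 or 3 of mother 3, and it changed sign with centring on the array median.

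Within 2000000 bases of mrpl30, 17 other genes with a probe were expressed and 13 differed between mothers (76.5%, beside 61.7%). Genes with a position come from the study's tables, where many were listed for their levels in these samples, so they compare more closely with each other. Of such genes elsewhere on chromosome 9, 75.5% differed between mothers, and of those on other chromosomes 80.0%. Of the 17 genes, mother 3 was lower for 5 (29.4%, beside 19.0% of all transcripts) and higher for 8 (47.1%, beside 20.3%). Mother 2 was lower for 4 (23.5%, beside 19.7%) and higher for 4 (23.5%, beside 18.8%). For genes with a position on other chromosomes, mother 3 was lower for 25.04% and higher for 30.71%. Mother 2 was lower for 30.03% of them and higher for 27.42%. Elsewhere on chromosome 9 these shares were 23.64% and 31.82% for mother 3, and 31.82% and 23.64% for mother 2. Beside both, the share lower in mother 2 near mrpl30 was smaller, while that higher in mother 3 was still larger. The 4 genes that were lower in both (23.5%, beside 9.0% of all transcripts) were gdap2, hsd3b1, lypd6 and 1 gene without a symbol. Among the genes with a position on other chromosomes, 16.1% were lower in both mothers, and among the other genes of chromosome 9, 19.1%. Of the 4 genes near mrpl30, gdap2 and hsd3b1 entered the tables only as genes with absolute distinct levels in these samples, which is no independent evidence. Without genes that entered only in that way, 2 of 14 (14.3%) were lower in both mothers. Elsewhere on chromosome 9 that share was 14.8%, and on other chromosomes 9.23%. With centring on the array median 7 of the 17 differed and 0 were lower in both mothers.

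gdap2, whose product is named for ganglioside-induced differentiation, starts 1.02 Mb before mrpl30 and had the profile 12311. Its log2 signal ran from 10.19 to 10.49 in mother 1, from 9.30 to 9.58 in mother 2, from 6.35 to 7.09 in mother 3, from 10.10 to 10.27 in mother 4 and from 10.16 to 10.55 in mother 5. It was 12.2-fold lower in mother 3 than in mothers 1, 4 and 5 (adjusted p = 9.89e-20), and its probe was well above background in 3 of the 5 eggs of mother 3. It was 1.78-fold lower in mother 2 (adjusted p = 5.29e-08).

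hsd3b1, an enzyme of steroid synthesis, starts 0.63 Mb before mrpl30 and had the profile 12311 too. In mother 3 its probe was well above background in 0 of 5 eggs, so mothers 1, 4 and 5 were at least 2.97-fold higher (adjusted p = 3.00e-15), a bound set by the lowest signal that is well above background on each array. Over mother 2 they were 1.42-fold higher (adjusted p = 9.28e-06). hsd3b1 is also 1 of the 3 follicle cell markers. The log2 of the summed signal of these 3 was 11.02 to 11.56 in mother 3, within the 10.71 to 11.95 of mothers 1, 4 and 5, and 10.43 to 11.00 in mother 2. cyp11a1, which makes the first step of steroid synthesis, had an adjusted p of 0.674 for mother 3 and was lower in mother 2, by 0.80 on the log2 scale (adjusted p = 1.39e-05). The hormone receptor gene lhcgr had a mean log2 signal of 7.59 in mother 2 and of 6.26 to 6.33 in the others. The part of follicle cell RNA in hsd3b1 was not tested.

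lypd6 (1.25 Mb after mrpl30) was 3.44-fold lower in mother 2 (adjusted p = 4.10e-06) and 1.73-fold lower in mother 3 (adjusted p = 0.0160), and its clutches formed 1 level. Its call for mother 3 was lost with the processed signal, the Cy3 over Cy5 ratio, without the filter on expression and without egg 1 or 5 of mother 3. The gene without a symbol (1.93 Mb after) was 1.54-fold lower in mother 3 and 1.64-fold lower in mother 2 (adjusted p = 0.000258 and 5.57e-05).

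Near hsd3b1 lay genes that ran the other way. si:rp71-68n21.11 (0.62 Mb before) was 3.18-fold higher in mother 3 (adjusted p = 1.68e-13) and 2.41-fold higher in mother 2 (adjusted p = 3.76e-11). cryl1 (0.44 Mb before), a crystallin-related enzyme of sugar metabolism, was 1.5-fold and 1.68-fold higher (adjusted p = 1.50e-06 and 3.11e-08). The oxidase gene hao2 (0.68 Mb before) was 2.05-fold and 1.21-fold higher (adjusted p = 5.27e-11 and 0.00612). xpo4, a nuclear transport receptor, was 1.22-fold and 1.33-fold higher (adjusted p = 0.0416 and 0.00420), but its call for mother 3 was lost when any of 11 single eggs was left out, with slide or array position as a block, without the filter and with the Cy3 over Cy5 ratio, which also ended the call for mother 2.

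sap18, a corepressor subunit, and uchl3, a deubiquitinating enzyme, were higher in mother 3 by 1.35-fold (adjusted p = 0.000954) and 1.32-fold (adjusted p = 0.000170), and were not called for mother 2. si:dkey-189g17.2 was 1.27-fold higher in mother 3 (adjusted p = 0.0276), but did not pass the F-test (adjusted p = 0.0577), and the first call was lost with the Cy3 over Cy5 ratio and without egg 2, 3 or 4 of mother 3. The transcription factor etv5a and the integrin gene itgb5 differed by 1.14- and 1.18-fold between the extreme mothers and did not pass the F-test (adjusted p = 0.321 and 0.143). Genes in which mother 3 was lower and genes in which it was higher thus stood next to each other in this stretch.

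**Figure D3:**
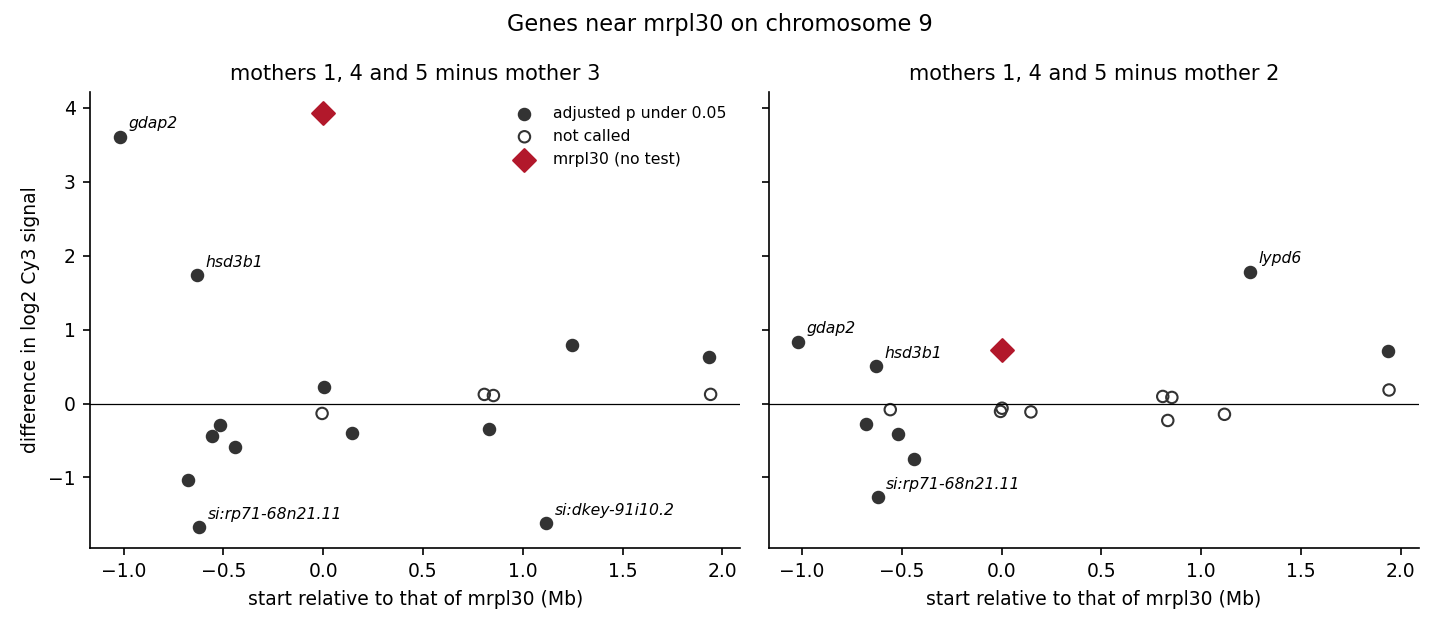
Difference in log2 Cy3 signal of mothers 1, 4 and 5 from mother 3 (left) and from mother 2 (right) against the distance of the gene's start from that of mrpl30 in Mb, for the 17 expressed genes within 2000000 bases on chromosome 9 and mrpl30 (diamond, no test). Filled points passed the contrast at an adjusted p of 0.05. gdap2 and hsd3b1 lie above 0 in both panels, the adjacent txndc9 lies near 0, and genes between them lie below it.

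Of 2772 expressed genes with a position, 13 had the profile 12311 and 5 of these lay on chromosome 9, which held 128 of the 2772. Beside mrpl30 they were gdap2, hsd3b1, scel and ttc21b. scel, a gene of the cornified cell envelope, starts 4.72 Mb from mrpl30, and ttc21b, a cilium gene, 28.1 Mb. The genes with a position come from parts of the study's tables, in which many were listed for their levels in these samples, so these counts are no independent evidence.

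Last, the genes with the pattern most like mrpl30 over the 24 eggs were sought among 3349 expressed genes with a symbol, by Pearson's r. The eggs fall into clutches, so r mostly reflects the order of the 5 mothers and is given as a description. The 8 highest were gdap2 (r = 0.99), si:dkeyp-46h3.2 (0.98), zgc:86609 (0.98), hsd3b1 (0.97), scel (0.96), kcnn1b (0.96), znhit3 (0.96) and zgc:112263 (0.95). The centred values differed from those of mrpl30 by a root mean square of 0.21 (log2) for gdap2, 0.42 for zgc:86609, 0.48 for scel, 0.56 for si:dkeyp-46h3.2 and 0.80 for znhit3. For hsd3b1, kcnn1b and zgc:112263, which were not well above background in mother 3, it was 0.90, 1.04 and 0.76 and rests on signals that are only a bound there. gdap2 and scel were well above background in some but not all eggs of mother 3, so their values rest in part on such signals too. An r over 0.9 was found for 18 genes and one under -0.9 for 53.

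These 8 genes were all low in mother 3, by sizes that differed widely. Choosing them by r with mrpl30 largely fixed this direction, and also the place of mother 3 on their lowest level. si:dkeyp-46h3.2 was 31.9-fold lower in mother 3 than in mothers 1, 4 and 5, zgc:86609 was 9.01-fold, scel 8.66-fold and the zinc finger gene znhit3 4.19-fold lower. For kcnn1b, a potassium channel gene, and zgc:112263 the probe was well above background in 0 eggs of mother 3, so that mothers 1, 4 and 5 were at least 2.22-fold and 4.33-fold higher. Of the 8, 5 had the profile 12311, and kcnn1b, znhit3 and zgc:112263 had other profiles, with mother 3 alone on the lowest level in each. The study listed 7 of the 8 for absolute distinct levels in these samples. They lie on chromosomes 5, 8, 9 and 19.

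None of the 8 was a mitochondrial ribosome gene, but only 32 of the 3349 candidates were, so this alone shows little. Over the 32 such genes r with mrpl30 ran from -0.61 to 0.77 with a median of -0.08, beside -0.02 over all 3349. The highest was that of mrpl3, which ranked 62nd of the 3349. By the root mean square difference mrps6 was nearer, with 1.33 beside 1.36 for mrpl3.

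**Figure D4:**
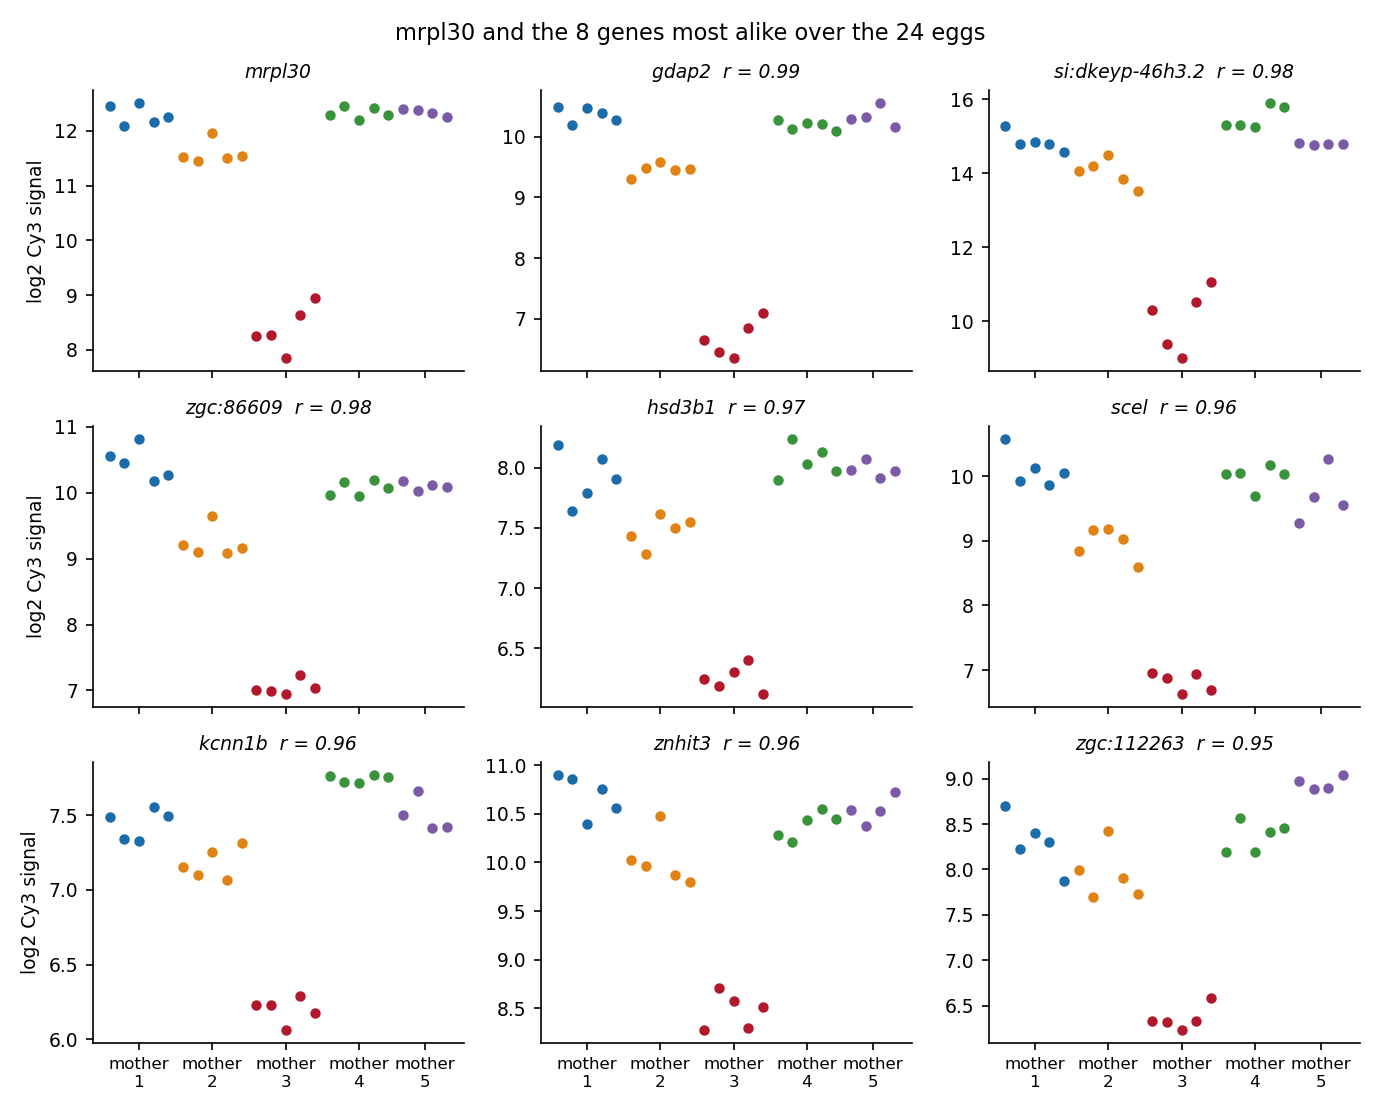
Log2 Cy3 signal of mrpl30 and the 8 genes with the highest Pearson's r with it over the 24 eggs, each panel with an axis of its own. Points are eggs in the order of mothers 1 to 5, coloured by mother. In each panel the 5 eggs of mother 3 are the lowest, and those of mother 2 mostly lie between them and the rest.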

How the data were processed

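Each of the 24 arrays was assigned to its mother by the sample title. The scanner files hold the median signal of each spot as an intensity that the authors' Agilent Feature Extraction 10.7.3.1 wrote, without background subtraction, and a processed intensity after background subtraction, detrending and dye normalization. The deposited series table holds log2 Cy3 values that the authors quantile normalized. Flags of 0 or 1 mark spots as non-uniform, saturated or well above background.

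Here, the log2 median Cy3 signal was quantile normalized over 88754 probes (the main set of the array design), leaving out 60 non-uniform spots. Probes were called present as the methods describe, from a cut in the log2 variance at -3.74. There the density of probes is lowest between the peaks of low and high variance. Mothers were compared by the moderated F of limma 3.58.1 (R 4.3.3) and by contrasts of mothers 1, 4 and 5 with mother 3 or 2, all adjusted by Benjamini-Hochberg over the expressed transcripts at 0.05. Files were read with the data.table package (version 1.17.8), and plots drawn in Python 3.11.15 (matplotlib 3.10.9, with pandas 2.3.3 and numpy 2.4.6). The steps were tested on simulated data. Arrays give no counts, so their number limits the precision.

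Gene identifiers came from the parts held of the study's tables, with 1 probe for each of 3835 genes, a symbol for 3492 and positions on Zv9. mrpl30, the gene lists and the tests were chosen with earlier results of these data known. The named genes were the mitochondrial ribosome genes listed with absolute distinct levels, the 6 others with the largest and the 3 with the smallest fold, the 3 largest folds in each other list, expressed genes within 1000000 bases of mrpl30 and those within 2000000 bases lower in both mothers 2 and 3, and the 8 genes with the highest r. The alternatives were other signals and scalings, other filters, the Cy3 over Cy5 ratio after loess, blocks for slide, array position and egg number, another adjustment, and each egg left out. The array mean as a covariate was chosen after seeing the data. The study left out probes whose signals ran strongly against the scaling factor, which it attributed to RNA that apparently carries poly(A) tails already. mrpl30 is not listed among these probes, and they were kept here.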

Additional observations from a re-analysis of the deposited data

Results flagged for a closer look

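Dixon's test at 95% marked 4 of 90 groups of eggs, beside 4.5 that chance gives at 1 in 20. For mrpl30 itself it was egg 3 of mother 2, with a log2 Cy3 signal of 11.97 beside 11.45 to 11.54 in the other 4 eggs. The same egg stood apart in mrpl57, with 11.75 beside 12.50 to 12.65, and it was on the array with the highest mean signal. In mother 1, egg 5 had 11.84 for mrps18c beside 12.17 to 12.24, and egg 1 had 11.01 for mrpl13 beside 11.34 to 11.40.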

How the results depend on the processing

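Mother 3 was the lowest mother for mrpl30 under every alternative run. Its fold from the highest mother was 15.4, and was 19.4 with the processed signal set to the 75th percentile, 22.1 with centring on the array median, 19.3 with the Cy3 over Cy5 ratio after loess, and 14.0 to 17.0 when each egg was left out. From the mean of the eggs of mothers 1, 4 and 5 on the same slide, the fold to the egg of mother 3 was 20.3 on slide 2 and 10.3 on slide 3. The upper gap was 0 with the processed signal and with centring, where the lower gap was 1.45. When each egg was left out the upper gap was 0.13 to 0.56, the latter without egg 3 of mother 2, and the lower gap 2.50 to 2.82, the latter without egg 5 of mother 3.

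Centring on the array median, which moved the median log2 difference of all transcripts to -0.22 for mother 3 and 0.18 for mother 2, left 3306 of 16542 transcripts that differed between mothers. That median was a raw Cy3 intensity of 71 to 91 on every array, while the mean log2 signal of expressed transcripts ran from 7.63 to 9.78. The centring thus hardly evens out the brightness of expressed transcripts, which limits what its lost calls and changed signs show. It left 1 of the 25 mitochondrial ribosome genes, 0 lower and 0 higher in mother 3, 0 lower and 0 higher in mother 2, and among the genes near mrpl30 7 that differed and 0 lower in both mothers. The log2 differences from mother 3 turned to -0.14 for mrps15, -0.017 for mrpl38, -0.25 for mrpl21 and -0.27 for zgc:162944. Of all calls for mother 3, the lower ones made up 48.4%, and 37.7% with the processed signal and 34.2% with centring, and for mother 2 51.2% and, with centring, 67.5%. The cause was not tested.

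With the processed signal 4 of the 32 mitochondrial ribosome genes were lower in mother 3 and 3 in mother 2. Of all 26828 transcripts 4066 were then lower in mother 3, and with the Cy3 over Cy5 ratio 3863 were higher. With this ratio 3 mitochondrial ribosome genes were higher in mother 3 and 3 lower in mother 2. Without a filter on expression, over 88754 probes, 5 were higher in mother 3. Among those present on all 24 arrays, 16566 in number, the expressed transcripts that differ between mothers were 10246, 5 of them near mrpl30 and 0 of these lower in both mothers, where fewer genes were tested. Leaving out each egg gave 5 to 10 genes lower in mother 3, with 5 without its egg 2, and 4 to 9 higher, with 4 without its egg 1 or 4. The array mean as a covariate, chosen after seeing the data, gave 28 mitochondrial ribosome genes and 13 near mrpl30. For the counts in mother 2, without the filter, with each egg left out and with this covariate, the shares over all transcripts are not given. The transcripts that passed the F-test were 15673 to 17941 with each egg left out and 3306 to 23856 over the other alternatives. Counts of a list alone therefore do not show a change particular to that list.

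The egg numbers do not pair eggs between mothers: the deviations of same-numbered eggs had a median r of 0.06 over 46 pairs. With egg number as a replicate block, 25 mitochondrial ribosome genes differed, the expressed transcripts that differ between mothers were 16057, and the adjusted p of mrpl30 in the reference was 1.00. Of 1281 values of single genes under other alternatives, 1182 kept their direction and their side of the threshold, and of 2592 with an egg left out 2537 did. The fold of the second probe is not given, and counting several probes of a gene apart was not run, since the tables pair 1 probe with each gene.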
